A study of Homo sapiens with 16 samples.

Results

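Peaks of H3K27ac, the acetylated form of lysine 27 on histone H3, were compared between chromatin immunoprecipitated with an excess of antibody and the same amount of chromatin immunoprecipitated with a matched amount. The comparison held 6 libraries of 16 samples in the series, 14 of which had a peak list. They were chosen by their labels as 3 pairs, each of a fixed-antibody and a normalized library at the same DNAchrom, the DNA content of the chromatin put into the reaction. The pairs were H3K27ac-0.31-T32 with H3K27ac-0.31-T1, H3K27ac-0.62-T16 with H3K27ac-0.62-T1 and H3K27ac-1.25-T8 with H3K27ac-1.25-T1. In each name the number before T is DNAchrom in µg and T is the titer, the antibody per DNAchrom relative to the study's optimum, T1. The excess libraries are called T32, T16 and T8 here, each T1 library is named with its pair, and values of 3 libraries are given in that order. All libraries came from untreated K562 cells, an established human erythroleukemia line, grown in IMDM with calf serum, and used one lot of antibody ab4729. In the fixed arm one amount of antibody met less and less chromatin, so the titer was highest for the smallest amount of chromatin, whereas in the normalized arm the antibody was scaled down with the chromatin. Each condition was 1 library. The arms were called against separate input libraries, so the arm and its input library cannot be told apart. The labels do not say whether the arms shared a chromatin preparation. The fixed and normalized libraries at 10 µg, 10-T1a and 10-T1b, have the same titer and served as the pair across arms without excess.

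H3K27ac is written by the acetyltransferases EP300 and CREBBP, is removed by histone deacetylases and marks active promoters and enhancers. At a promoter it sits on the nucleosomes that flank the transcription start site (TSS). Distal peaks of the mark are widely used to locate enhancers, and long runs of it cover genes of cell identity. K562 cells express fetal and embryonic globins and erythroid regulators such as GATA1, KLF1 and TAL1. Of 13 promoters chosen as K562 markers, 11 to 12 had a peak in each of the 6 lists. None of 6 neuronal and none of 3 liver markers had one, while of 8 lymphoid markers 3 had a peak in each excess list and 1, 2 and 2 in the T1 lists, and the part of this difference in the results was not tested.

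A peak was used when its q-value was at or below 1% (−log10 q of at least 2). The excess lists held 64083 (T32), 70402 (T16) and 71406 peaks (T8), with median widths of 347, 363 and 365 bp. The T1 lists held 68137, 78728 and 82143 peaks in the same order of DNAchrom, with median widths of 441, 440 and 453 bp. Excess lists thus had fewer and narrower peaks in each pair, and covered 32.8, 39.4 and 41.3 Mb against 54.4, 65.0 and 71.2 Mb. Peak lists hold no read counts, so no interval is given for a single peak. A promoter was called kept when a peak lay within 1 kb of the TSS in all 6 lists, lost when all 3 T1 lists and no excess list had one, and gained in the opposite case. The percentile is the rank of a promoter's strongest peak by fold enrichment over input within its own list, with 100 as the strongest. It compares order within a list, not amount of acetylation between lists.

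Promoters largely kept their peaks. Of 19626 protein-coding genes, 9529 (48.6%) were kept, 85 (0.433%) were lost, 37 (0.189%) were gained, 2024 (10.3%) differed without going the same way in all pairs, and 7951 (40.5%) had no peak in any of the 6 lists. Lost genes included the red cell membrane gene EPB42 and the nuclear envelope gene LEMD2, and gained genes included the antigen-processing pair TAP1 and PSMB9. Sequences of 8 promoters that carry these results are given first, from 250 bases before to 50 bases after the TSS, as RefSeq gives them on GRCh38.p14. CpG dinucleotides are in capitals, since the 3 groups differed in how many they hold.

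The lost promoters shown are those of UGT2A3 (chr4:68951755-68952054, minus strand) and TENT5D (chrX:80420197-80420496, plus strand), which ranked highest in the T1 lists, and EPB42 (chr15:43220969-43221268, minus strand).
UGT2A3: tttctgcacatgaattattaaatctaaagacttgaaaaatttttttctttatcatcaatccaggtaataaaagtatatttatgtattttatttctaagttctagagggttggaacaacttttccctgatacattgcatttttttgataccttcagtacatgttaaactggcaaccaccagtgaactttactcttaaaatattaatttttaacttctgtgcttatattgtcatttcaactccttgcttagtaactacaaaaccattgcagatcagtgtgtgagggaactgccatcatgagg
TENT5D: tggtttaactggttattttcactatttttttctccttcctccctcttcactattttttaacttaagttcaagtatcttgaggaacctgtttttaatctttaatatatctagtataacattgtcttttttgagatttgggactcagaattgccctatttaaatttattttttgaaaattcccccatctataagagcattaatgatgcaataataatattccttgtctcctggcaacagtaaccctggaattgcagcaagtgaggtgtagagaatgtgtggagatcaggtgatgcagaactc
EPB42: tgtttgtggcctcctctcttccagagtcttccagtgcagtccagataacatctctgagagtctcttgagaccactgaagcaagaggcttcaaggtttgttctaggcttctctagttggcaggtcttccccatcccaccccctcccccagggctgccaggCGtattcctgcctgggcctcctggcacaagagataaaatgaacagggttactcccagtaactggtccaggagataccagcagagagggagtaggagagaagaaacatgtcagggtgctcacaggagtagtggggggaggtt

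The gained promoters shown are TOMM20L (chr14:58395680-58395979, plus strand), which ranked highest in the excess lists, and TAP1 (chr6:32853655-32853954, minus strand).
TOMM20L: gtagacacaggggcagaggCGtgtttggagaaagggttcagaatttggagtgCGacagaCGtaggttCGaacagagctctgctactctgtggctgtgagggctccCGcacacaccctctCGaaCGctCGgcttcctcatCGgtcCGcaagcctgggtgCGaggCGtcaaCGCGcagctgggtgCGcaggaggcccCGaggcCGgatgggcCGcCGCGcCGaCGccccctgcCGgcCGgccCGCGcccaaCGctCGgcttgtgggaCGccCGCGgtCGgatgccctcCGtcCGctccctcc
TAP1: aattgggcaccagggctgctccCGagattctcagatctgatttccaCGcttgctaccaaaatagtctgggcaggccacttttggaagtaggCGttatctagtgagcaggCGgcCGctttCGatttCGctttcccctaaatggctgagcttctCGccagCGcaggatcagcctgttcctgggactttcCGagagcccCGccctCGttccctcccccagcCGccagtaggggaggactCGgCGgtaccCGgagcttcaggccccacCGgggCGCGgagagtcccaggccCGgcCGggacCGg

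The kept promoters shown are those of GATA1 (chrX:48786340-48786639, plus strand) and BHLHE40 (chr3:4979187-4979486, plus strand), among the widest in the T1 lists, and ALAS2 (chrX:55030928-55031227, minus strand), whose percentile differed most between the arms among the named heme genes.
GATA1: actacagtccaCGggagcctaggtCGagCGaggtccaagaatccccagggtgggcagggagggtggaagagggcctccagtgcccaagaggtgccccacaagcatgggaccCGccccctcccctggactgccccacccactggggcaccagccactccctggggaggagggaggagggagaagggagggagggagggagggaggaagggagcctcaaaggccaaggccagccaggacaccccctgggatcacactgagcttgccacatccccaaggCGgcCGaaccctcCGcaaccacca
BHLHE40: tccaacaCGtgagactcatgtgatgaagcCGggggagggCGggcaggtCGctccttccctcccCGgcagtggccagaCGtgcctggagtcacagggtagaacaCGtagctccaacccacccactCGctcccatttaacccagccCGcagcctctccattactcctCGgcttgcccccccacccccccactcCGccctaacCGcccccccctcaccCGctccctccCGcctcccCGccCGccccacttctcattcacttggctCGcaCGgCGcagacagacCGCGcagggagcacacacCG
ALAS2: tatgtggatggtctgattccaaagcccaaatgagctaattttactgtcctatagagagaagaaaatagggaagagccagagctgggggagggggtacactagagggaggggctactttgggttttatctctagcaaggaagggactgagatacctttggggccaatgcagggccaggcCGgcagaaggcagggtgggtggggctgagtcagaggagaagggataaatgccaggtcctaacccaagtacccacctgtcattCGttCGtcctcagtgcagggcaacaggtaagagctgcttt

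The windows of UGT2A3 and TENT5D hold 0 CpG and that of EPB42 holds 1, whereas TOMM20L holds 34, TAP1 22, BHLHE40 22, GATA1 7 and ALAS2 3. Over all promoters with a sequence, the median CpG number was 27 for 8025 kept, 14.5 for 60 lost, 12.5 for 30 gained and 8 for 6131 without a peak, against 22 for all 15811. Median GC content was 66.0%, 55.3% and 64.7% for kept, lost and gained promoters, against 55.7% for those without a peak and 62.7% for all. The TATA box letters TATAAA, read on both strands, were in 13 of 60 lost promoters (21.7%), 3 of 30 gained (10.0%) and 4.85% of kept, against 9.64% of all. The GATA letters AGATAA, the core bound by GATA1, were in 9 of 60 lost (15.0%) and 2 of 30 gained (6.67%), against 4% of kept and 7.55% of all, and EPB42 and ALAS2 are among the promoters that hold them. The GC box GGGCGG was in 41.7% of lost, 60% of gained and 74.1% of kept promoters, against 58.5% of all, and the ETS letters CCGGAAG in 6.67%, 6.67% and 22.8%, against 14.2%. CCAAT was spread evenly, in 41.7%, 36.7% and 37.5%, against 36.3%. Promoters without a peak held these motifs, in the order given, in 16.4%, 11.96%, 37.7%, 4.13% and 35.6% of cases. Except for the last motif, these shares were closer to those of lost than of kept promoters. The motif shares and the base content are therefore not particular to lost promoters, and no difference was tested. All letters were searched on both strands and independently, so a base can count for more than 1 motif, and a match is a description of the window only.

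By pair, 10351, 10626 and 10562 genes had a promoter peak in T32, T16 and T8, and 10472, 10773 and 10910 in the paired T1 lists. The excess list had fewer in every pair, by 121 to 348 genes, a mean of 205 ± 124 (SD, n = 3 pairs). The exact sign-flip permutation test gave p = 0.25, two-sided, which is the smallest p that 3 pairs allow, so no difference over these pairs can pass a threshold of 0.05. Within pairs, 605, 548 and 639 genes had a peak in the T1 list alone (5.78%, 5.09% and 5.86% of genes with a T1 peak), and 484, 401 and 291 in the excess list alone (4.68%, 3.77% and 2.76% of genes with a peak there). At 10 µg, where both libraries were at titer 1, the counts were 311 (2.85%) and 328 (2.996%), so turnover across arms was present without excess.

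The lost promoters were mostly narrow peaks of middle rank. Their mean percentile in the T1 lists ran from 14.3 to 95.6 with a median of 54.9, and 51 of 85 were at or above the median of their lists, while the kept promoters had a median of 90.3. Their median T1 width was 410 bp against 1680 bp for kept promoters. A peak of every excess list lay within 5 kb of the TSS at 23 of the 85 (27.1%), and 51 had no excess peak within 5 kb in any of the 3 lists. The number of lost promoters depended on the peak threshold: it was 264 at −log10 q of at least 5, and 32 of the 85 were among them.

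UGT2A3, a UDP-glucuronosyltransferase, ranked near the top of the T1 lists, with percentiles of 90.8, 97.3 and 98.8 in the T1 libraries paired with T32, T16 and T8 and widths of 2683, 2712 and 1405 bp. The excess lists had no peak in its window, but each had one just beyond it, at 1639, 1621 and 1584 bp from the TSS. TENT5D, a non-canonical poly(A) polymerase on the X chromosome, had percentiles of 88.4, 93.4 and 92.8 and widths of 2940, 2476 and 2607 bp, with excess peaks at 1445, 1375 and 1722 bp. LEMD2, an inner nuclear membrane protein (TSS at chr6:33786942), had percentiles of 85.8, 85.4 and 92.0, with excess peaks at 1202, 1188 and 1222 bp. It had a peak in all 4 other fixed lists (70.4, 84.3, 77.0 and 1.48 in 2.5-T4, 5-T2, 10-T1a and 20-T0.5) but in 2 of the 4 other normalized lists. The loss of LEMD2 thus did not follow the arm outside these 3 pairs. The T1 peaks of LEMD2 were 1237, 1361 and 1327 bp wide. These 3 highest-ranked losses thus had an excess peak outside the window but within 5 kb of the TSS in each excess list. None of the 3 is therefore lost with a window of 5 kb. The side of the TSS on which these excess peaks lay was not looked up. Whether they fell inside the T1 peaks was not tested.

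Other lost promoters stood far from any excess peak. FAM168A (TSS at chr11:73598112) had percentiles of 76.3, 84.8 and 79.4 in the T1 lists, and its nearest excess peaks were 162261, 161949 and 152945 bp away. C9orf72 (TSS at chr9:27573866) had percentiles of 82.8, 67.6 and 80.1, with excess peaks at 43826, 44128 and 44892 bp. The window shared by DCDC1 and DNAJC24, the latter a J-domain protein of diphthamide synthesis, had percentiles of 74.7, 82.6 and 82.1 and narrow T1 peaks of 286, 361 and 501 bp. TTC23 was between these cases, with T1 percentiles of 84.4, 85.3 and 71.3 and excess peaks at 205619 and 183340 bp in T32 and T16, but at 1066 bp in T8. SLC35E2B (71.4, 89.0 and 85.3) and SEC14L4, a SEC14-like lipid-binding protein (80.6, 78.2 and 86.7), had an excess peak within 4588 and 8791 bp in each list. The histone genes H2BC18 and H3C13 share a window (77.8, 80.6 and 77.9), and are near-identical to other histone genes, so their peaks are uncertain.

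EPB42, protein 4.2 of the red cell membrane skeleton, was the lost gene of the erythroid lists. Its T1 percentiles were 57.8, 70.7 and 82.1, its T1 peaks were 370, 879 and 531 bp wide, and the nearest excess peaks were at 2157, 34423 and 34814 bp. It had a peak in all 4 other normalized lists, at percentiles of 37.0 to 73.0, and in 3 of the 4 other fixed lists (64.2 in 2.5-T4, 18.6 in 10-T1a and 49.8 in 20-T0.5). Further lost genes below the 12 highest, picked after their values were seen for their known roles, were ID2, an inhibitor of basic helix-loop-helix factors (71.0, 74.4 and 76.8), and MED6, a Mediator subunit (74.7, 66.1 and 77.9). The nearest excess peaks were at most 2429 bp from the ID2 TSS and at least 240635 bp from that of MED6. Only EPB42 and the olfactory receptor OR52A1 of the 14 gene lists were lost.

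The gained promoters were weaker still within their lists. Their mean percentile in the excess lists ran from 15.0 to 66.1 with a median of 43.6, 9 of 37 were at or above the median of their lists, and their median width was 372 bp. At −log10 q of at least 5 only 8 promoters were gained, and 1 of the 37 was among them. TOMM20L, named for its likeness to a mitochondrial import receptor, had percentiles of 69.6, 54.7 and 73.9 in T32, T16 and T8, and its nearest T1 peaks were 18844 to 23127 bp away. It had a peak in 3 of the other fixed lists (38.5, 33.4 and 50.5 in 2.5-T4, 5-T2 and 10-T1a) and in no other normalized list. TAP1, the peptide transporter of antigen presentation, and PSMB9, an immunoproteasome subunit, share one divergent window with percentiles of 74.7, 59.9 and 51.8 and widths of 659, 445 and 384 bp. Their window had no peak in 2.5-T4, 5-T2 or 10-T1a but had one in all 4 normalized lists at larger DNAchrom, at percentiles of 46.9 to 60.7. The gain of the pair thus did not follow the arm outside these 3 pairs.

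RIN1, a Ras effector, had excess percentiles of 83.9, 61.9 and 50.1 and T1 peaks within 3849 bp in all 3 lists. CABP4, a calcium-binding protein of photoreceptor synapses (50.4, 72.8 and 45.2), had a peak in no other normalized list. IGFBP6, which binds insulin-like growth factors (84.5, 45.6 and 32.5), and UBE2E2, a ubiquitin-conjugating enzyme (52.9, 71.6 and 37.3), had peaks in 4 and 2 of the 4 other normalized lists. The remaining named gains were RPL3L (54.5, 56.2 and 42.6), RASGEF1B (30.97, 49.6 and 72.1), TMEM67 (12.4, 67.9 and 69.4), the mitochondrial glutamate carrier SLC25A18 (69.6, 43.8 and 35.3) and NAGPA (39.7, 57.3 and 48.6). In each of these a percentile in one excess list was at least 10 points from that in another.

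**Figure D1:**
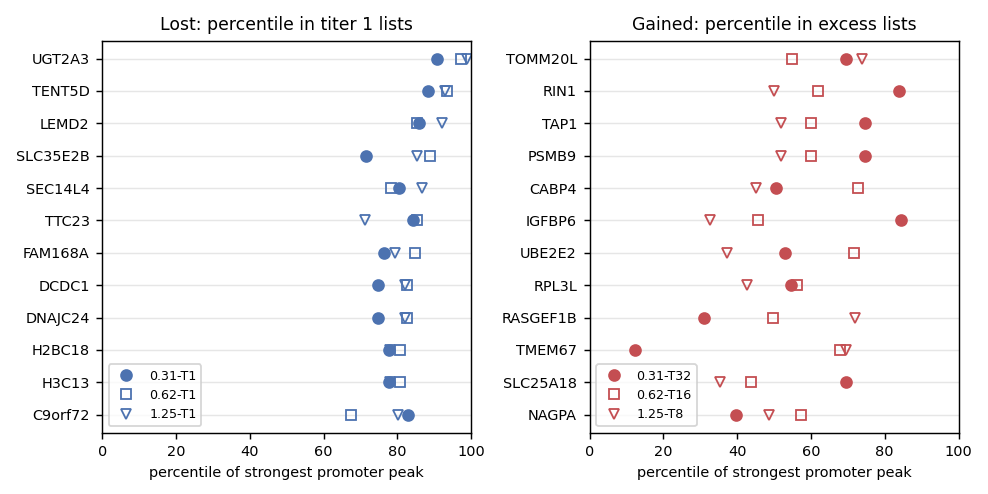
Percentile of the strongest promoter peak for the 12 named lost genes in the 3 T1 lists and the 12 named gained genes in the 3 excess lists, with one symbol per library. UGT2A3 sat between 90.8 and 98.8, whereas the gained genes ranged from 12.4 to 84.5.

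The other 8 lists were not used to choose these promoters. Of the 85 lost genes, 82.4%, 90.6%, 90.6% and 92.9% had a peak in 2.5-T1, 5-T1, 10-T1b and 20-T1, and 35.3%, 48.2%, 69.4% and 65.9% in 2.5-T4, 5-T2, 10-T1a and 20-T0.5. All 4 other normalized lists held 62 of them (72.9%) and all 4 other fixed lists 18 (21.2%). In the fixed arm the share was thus lowest at titer 4 and highest at titer 1. Of the 37 gained genes, 27.03%, 40.5%, 35.1% and 51.4% had a peak in the 4 other normalized lists and 64.9%, 64.9%, 75.7% and 59.5% in the 4 other fixed lists. Presence in 10-T1a, at titer 1, was at least as high as at titers 2 and 4, so for the gained genes the other fixed lists did not order by titer.

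Peaks at the kept promoters were narrower in the excess lists. At the 9529 kept promoters the widest peak had a median width of 826, 985 and 1054 bp in T32, T16 and T8, and of 1438, 1671 and 1847 bp in the paired T1 lists. The median ratio of excess to T1 width was 0.595, 0.619 and 0.596. On the log2 scale the medians were −0.75, −0.69 and −0.75, a mean of −0.73 ± 0.031 (SD, n = 3 pairs; exact sign-flip permutation p = 0.25, the smallest possible). Each pair's median lay far from 0 compared with the spread over the pairs.

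**Figure D2:**
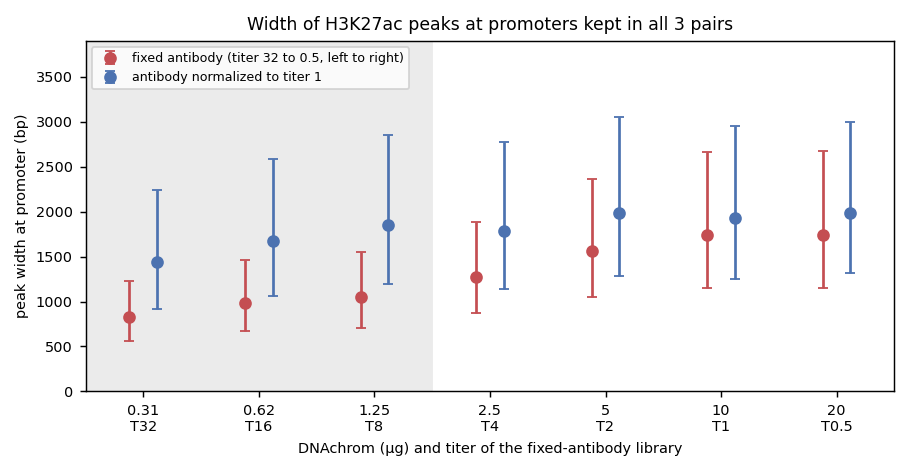
Median width in bp, with the interquartile range as bars, of the widest peak at the 9529 kept promoters for each pair of fixed-antibody and normalized libraries. The excess medians of 826 to 1054 bp were below all 3 T1 medians, of 1438 to 1847 bp.

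The peak was narrower with excess antibody at 86.4%, 86.8% and 89.4% of kept promoters, at 6843 of them (71.8%) in all 3 pairs, and wider in all 3 at 123 (1.29%). A width of at least 2 kb was reached by 6.40%, 11.3% and 13.6% of kept promoters in the excess lists and by 31.2%, 39.6% and 45.0% in the T1 lists. The promoter window held more than 1 peak at 65.2%, 66.8% and 67.9% of kept promoters with excess and at 58.8%, 56.8% and 54.4% at T1. Of all T1 peaks at least 2 kb wide (5625, 7106 and 8161), 76.7%, 75.6% and 76.3% overlapped 2 or more excess peaks, and 1.81%, 1.21% and 0.968% overlapped none. At 10 µg 51.2% of wide 10-T1b peaks overlapped 2 or more 10-T1a peaks. In the reverse direction, 16.8%, 14.4% and 10.7% of excess peaks at least 2 kb wide (1141, 1960 and 2320) overlapped 2 or more T1 peaks, against 32.6% of wide 10-T1a peaks at 10 µg. Kept promoters were also split into 5 equal classes by their mean percentile in the T1 lists. From the weakest to the strongest class the ratio of widths went from 0.757 to 0.518 at titer 32 and from 0.744 to 0.556 at titer 16. At titer 8 it went from 0.665 to 0.553. The classes and the T1 width in the ratio come from the same lists, so this trend is a description only. It was not set beside the pair at 10 µg.

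Values are given for genes among the 6 with the widest T1 peaks. PIEZO1, a mechanically gated channel present in red cells (TSS at chr16:88785220), had widths of 7169, 9249 and 8245 bp with excess and 13926, 19723 and 19685 bp at T1. GATA1, the erythroid master factor, had 3650, 4050 and 3999 bp against 13480, 15025 and 14918 bp. Its percentiles were 94.5, 87.4 and 96.4 against 91.4, 88.0 and 95.1, so its percentiles overlapped between the arms. BHLHE40, a repressor of the basic helix-loop-helix family, had 2271, 1870 and 2936 bp against 13522, 14448 and 13524 bp. SLC16A3, a lactate transporter, had 2284, 5557 and 1906 bp against 9727, 14152 and 19010 bp. The genes were chosen for their T1 width, so these values are a description and no support for a difference.

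Rank within the list moved in both directions. The median change in percentile at kept promoters, excess minus T1, was −0.743, −0.976 and −1.35 points. Its quartiles were −9.51 and 5.97, −8.41 and 4.19, and −8.50 and 3.61 points. In all 3 pairs the percentile was lower with excess at 2609 promoters (27.4%) and higher at 1671 (17.5%). The largest lower rank was that of TNNT1, slow skeletal muscle troponin T (TSS at chr19:55149206), with percentiles of 7.79, 13.3 and 29.2 with excess and 97.7, 92.8 and 97.8 at T1, and widths of 309, 674 and 679 bp against 3422, 4658 and 4945 bp. BBS7, a subunit of the ciliary BBSome (TSS at chr4:121870474), had 1.31, 0.951 and 8.55 against 70.2, 90.1 and 88.2. CCN1, a secreted matricellular protein, had 2.83, 12.2 and 17.8 against 84.7, 82.6 and 80.4. These genes were chosen for the size and direction of this change, so the values are a description.

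H2BN1, a histone H2B variant, had percentiles of 19.99, 53.8 and 36.5 against 98.4, 99.6 and 98.7, and the zinc transporter SLC39A11 had 31.8, 0.295 and 2.31 against 80.3, 76.1 and 65.0. The shared window of CIRSR and SCRN3 had 0.329, 39.0 and 9.79 against 73.9, 90.5 and 70.3, and LOC124900641 had 2.83, 5.14 and 57.0 against 92.6, 93.4 and 95.9. Among higher ranks, VPS39, a subunit of the lysosomal tethering complex HOPS (TSS at chr15:42208304), had 87.5, 66.5 and 73.9 with excess against 28.2, 3.28 and 36.6 at T1. TMEM184C had 98.2, 92.5 and 91.3 against 32.5, 62.2 and 43.95, and NKX3-2, a homeobox repressor, had 86.7, 92.5 and 91.3 against 63.7, 17.9 and 61.8. The heat-inducible chaperone HSPA6 had 96.9, 74.4 and 68.4 against 41.1, 6.53 and 61.7, and SCAPER had 62.7, 76.3 and 62.9 against 54.0, 17.6 and 3.65. CD248, or endosialin, had 75.8, 85.5 and 79.0 against 14.4, 28.3 and 52.1, and its mean change went to the opposite sign with a window of 5 kb. The window of CFAP57 and EBNA1BP2 had 92.6, 89.6 and 78.2 against 0.757, 65.4 and 14.6. Most of these genes had a weak peak in one arm, and at −log10 q of at least 3 a peak was missing from some list at 7 of the 8 genes with the largest lower ranks and 5 of the 8 with the largest higher ranks.

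**Figure D3:**
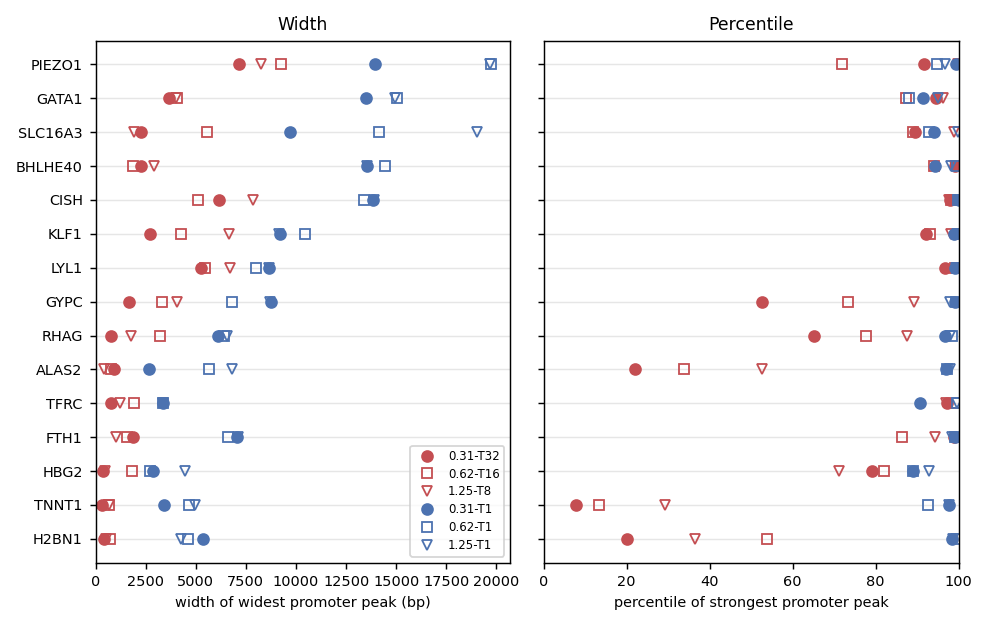
Width in bp of the widest promoter peak and percentile of the strongest one for 15 kept genes, with one symbol for each of the 6 libraries. GATA1 kept its rank (87.4 to 96.4 with excess) at widths of 3650 to 4050 bp against 13480 to 15025 bp at T1, whereas ALAS2 and TNNT1 were lower in both.

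Kept members of the gene lists were named for their percentile at T1, so a lower one with excess is a description of them. Over all genes, 48.6% were kept and 71.8% of kept promoters were narrower in all 3 pairs, shares that stand beside every list below. Of 14 erythroid transcription factors 13 were kept, none was lost or gained, and 11 were narrower in all 3 pairs, with a median width ratio of 0.685 against 0.597 for all kept promoters. KLF1, an activator of adult globin genes (TSS at chr19:12887201), had widths of 2731, 4241 and 6676 bp against 9182, 10441 and 9142 bp at T1. LYL1, a basic helix-loop-helix factor related to TAL1, had 5264, 5469 and 6688 bp against 8669, 7996 and 8660 bp. ZBTB7A, a repressor of fetal globin, had 2258, 2378 and 2249 bp against 2326, 2386 and 2320 bp, and LDB1, a bridging cofactor of erythroid complexes, 2249, 2257 and 2260 bp against 2387, 2309 and 3544 bp. Widths of KLF1 and LYL1 did not overlap between the arms, whereas those of ZBTB7A did.

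Of 12 heme genes 11 were kept and 1, HMOX1, was mixed, with a median width ratio of 0.459 and a median percentile of 83.9 with excess against 95.7 at T1, while over all kept promoters the medians were 88.3 and 90.3. ALAS2, the erythroid form of the first and rate-limiting heme enzyme, had percentiles of 22.02, 33.8 and 52.5 with excess and 97.0, 97.1 and 97.9 at T1, and widths of 900, 794 and 428 bp against 2660, 5643 and 6820 bp. At −log10 q of at least 5, ALAS2 was the lost gene of this list. The arms did not overlap in its width or its percentile.

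Of 17 red cell surface and membrane genes 10 were kept, 1 was lost (EPB42), 4 were mixed (GYPB, GYPE, RHD and SLC4A1) and 2 had no peak. The 10 kept ones had a median width ratio of 0.473, and a median percentile of 81.4 with excess against 93.1 at T1. GYPC, or glycophorin C (TSS at chr2:126656158), had percentiles of 52.6, 73.5 and 89.3 against 99.1, 99.3 and 97.9 and widths of 1691, 3310 and 4080 bp against 8740, 6824 and 8697 bp. RHAG, the Rh-associated glycoprotein (TSS at chr6:49636839), had 65.1, 77.7 and 87.7 against 96.8, 98.4 and 98.0 and widths of 790, 3195 and 1764 bp against 6095, 6409 and 6543 bp. In both genes the excess percentiles were in the order of titer, lowest at titer 32, while the T1 percentiles were not. EPOR, the erythropoietin receptor, had 97.4, 96.7 and 93.7 against 98.5, 98.9 and 97.5, so it differed little in rank. SLC4A1, the band 3 anion exchanger, had a peak in T32 and T8 (62.1 and 45.2) but not T16, and in all T1 lists (64.7, 71.2 and 60.1), and at −log10 q of at least 5 it was lost together with EPB42 and GYPB. GYPB and GYPE, like RHD and RHCE, are near-identical neighbours, so their peaks are uncertain.

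Of 10 globin genes 7 were kept, HBE1 and HBB were mixed and HBA2 had no peak, and the median percentile of the kept ones was 66.8 with excess against 85.9 at T1. HBZ, embryonic zeta globin, had 89.0, 88.1 and 90.9 against 94.1, 98.1 and 97.6. HBG2, fetal gamma globin, had 79.1, 81.9 and 71.1 against 89.0, 89.0 and 92.9, though it is near-identical to HBG1. HBE1, embryonic epsilon globin, had a peak only in T8 (13.6) among the excess lists and in all T1 lists (50.4, 54.7 and 67.9). Percentiles of HBZ and HBG2 did not overlap between the arms. HBA1, also kept, went the other way, with 93.3, 74.0 and 75.4 with excess against 59.5, 71.0 and 65.7 at T1. Its percentiles did not overlap between the arms either. HBA1 and HBA2 are near-identical neighbours, so the peaks of HBA1 and their absence at HBA2 are uncertain.

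Of 12 iron genes 11 were kept, with a median width ratio of 0.559, and HFE was mixed. TFRC, the transferrin receptor, had widths of 775, 1921 and 1221 bp against 3369, 3368 and 3356 bp, and FTH1, ferritin heavy chain, had 1855, 1563 and 1043 bp against 7060, 6606 and 7090 bp. Of 14 STAT5 target and survival genes, downstream of the BCR-ABL1 kinase of K562, 13 were kept, against 48.6% of all genes. All 13 were narrower in all 3 pairs, against 71.8% of all kept promoters, and the ratio was 0.481 against 0.597. CISH, a STAT5-induced suppressor of cytokine signalling, had 6155, 5119 and 7878 bp against 13860, 13415 and 13891 bp. CCND1, cyclin D1, was mixed, with a peak in T16 alone among the excess lists (3.59) and in all T1 lists (62.8, 71.2 and 71.0).

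Of 16 immediate early and AP-1 genes 13 were kept, 8 of them narrower in all 3 pairs, against 71.8% of all kept promoters. Their median percentile was 96.6 with excess against 91.5 at T1, beside 88.3 and 90.3 over all kept promoters. DUSP1, a MAP kinase phosphatase, had 1223, 1259 and 1642 bp against 4352, 5731 and 6187 bp. EGR1, a zinc finger factor of the early response, went the other way, with 734, 1059 and 1105 bp against 719, 681 and 639 bp at percentiles of 97.6 to 99.8 over both arms. It was wider with excess in all 3 pairs, as were 123 kept promoters in all.

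Housekeeping lists were kept in nearly every member. All 31 proteasome genes were kept, with a ratio of 0.640 and 17 narrower in all 3 pairs, and 77 of 79 cytosolic ribosomal protein genes, with a ratio of 0.596 and 59 narrower. RPS19 had 1096, 2389 and 1006 bp against 3985, 5670 and 5536 bp, and PSMB5 had 1595, 1737 and 1579 bp against 2351, 2241 and 3265 bp. Of 32 writers, readers and erasers of acetylation 30 were kept at a ratio of 0.586, among them the deacetylase gene HDAC7, with 1548, 1097 and 1608 bp against 5598, 12556 and 6793 bp. HDAC9, of the same family, was mixed and stood at 64.2, 68.4 and 37.3 with excess, with no peak in the T1 libraries paired with T32 and T16 and 41.1 in that paired with T8. Of 5 genes with a qPCR locus in the study, ACTB, GAPDH, PABPC1 and SMARCA4, with positive loci, were kept. MYT1, with a negative locus, had no peak. The intergenic negative locus of the study was not looked up. In lists of other lineages 4 of 18 lymphoid, 0 of 17 neuronal and 4 of 386 olfactory receptor genes were kept, against 48.6% of all genes, while 5 lymphoid, 2 neuronal and 5 olfactory receptor genes were mixed. RAG1, a lymphoid recombinase, was kept at percentiles of 84.8 to 95.3 over the 6 lists.

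TSS-distal regions, more than 5 kb from any TSS and here candidate enhancers, turned over far more than promoters. Overlapping peaks of the 6 lists were merged into 135245 regions, 81038 of them distal. Of these 6214 (7.67%) were kept, 3008 (3.71%) lost and 449 (0.554%) gained, and 88.1% differed between lists without going the same way in all pairs. Excess lists had peaks in 24079, 26910 and 26514 distal regions and T1 lists in 32834, 39866 and 42800, a difference of 8755, 12956 and 16286, with a mean of 12666 ± 3774 (SD, n = 3 pairs; exact sign-flip permutation p = 0.25, the smallest possible). Within pairs, 66.7%, 66.1% and 66.6% of regions with a T1 peak had none with excess, and 54.6%, 49.8% and 46.1% of regions with an excess peak had none at T1. At 10 µg the shares were 50.7% and 46.9%, so much of this turnover was also present at equal titer. Where a distal region had a peak in both lists, the excess peaks covered 0.646, 0.665 and 0.648 of the bases that the T1 peaks covered, against 0.926 at 10 µg.

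Counted as merged regions, losses exceeded gains to a like degree near and far from any TSS. Counted by protein-coding gene, promoter calls were less one-sided, with 85 lost and 37 gained. Within 1 kb of a TSS there were 6.69 lost regions per gained one, from 1 to 5 kb 5.98, and beyond 5 kb 6.70, while the share kept was 52.2%, 7.25% and 7.67%. Lost distal regions had a median percentile of 46.4 in the T1 lists and a median width of 438.5 bp, against 77.0 and 1321 bp for kept ones, and 48 lost regions were at a percentile of at least 80. Gained ones had a median of 38.7 and 335 bp, and 1 was at 80 or above. Requiring that no peak of the other lists lie within 1 kb left 1527 lost and 160 gained distal regions. At −log10 q of at least 5, 27 distal regions were gained.

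The share of T1 peaks without a partner in the excess list was smallest in the highest ranks. In 5 classes from the lowest to the highest percentiles of each T1 list (0 to 20, up to 80 to 100), promoters without an excess peak were 37.3%, 37.8%, 21.0%, 9.99% and 1.08% at titer 32, 40.2%, 40.4%, 28.1%, 9.86% and 0.834% at titer 16, and 55.4%, 47.3%, 33.1%, 11.3% and 0.762% at titer 8. For distal regions the shares were 79.9%, 80.1%, 70.4%, 48.9% and 13.3% at titer 32, 78.6%, 79.3%, 71.6%, 48.95% and 10.6% at titer 16, and 82.4%, 80.1%, 70.8%, 48.6% and 9.74% at titer 8. At 10 µg the highest class lost 0.132% of promoters and 1.38% of distal regions, and the next class 2.80% and 19.4%. The share of strong distal regions without a partner was thus higher in each excess pair than in the pair at equal titer, a difference of single pairs that was not tested.

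**Figure D4:**
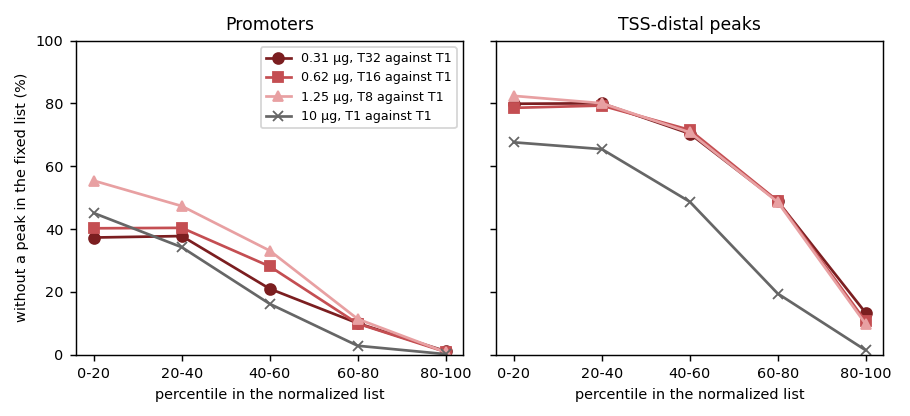
Share in % of promoters and distal regions with a peak in the normalized list that had none in the fixed list, in 5 classes of percentile in the normalized list, for the 3 excess pairs and the pair at 10 µg. In the highest class distal loss was 13.3%, 10.6% and 9.74% with excess and 1.38% at 10 µg.

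The lost distal region of highest rank was chr15:38437284-38438100, 16027 bp from the TSS of FAM98B, with percentiles of 97.5, 90.5 and 95.6 in the T1 lists. A region in QSOX2, a sulfhydryl oxidase gene, at chr9:136236355-136237936 had 88.5, 87.0 and 84.2 and was absent from all 4 other fixed lists and present in all 4 other normalized ones. The region chr14:68295618-68297137, in the recombination gene RAD51B, had 89.4, 88.5 and 83.2, and chr17:39332159-39334062, in FBXL20, had 92.6, 77.8 and 88.9. The others of the 8 highest were chr6:164338270-164339063 near LOC105378109 (91.3, 83.7 and 90.2), chr16:29622651-29622938 near SLC7A5P1 (82.8, 87.5 and 92.8), chr12:47055130-47055911 near PCED1B (87.3, 85.9 and 87.6) and chr2:217093090-217094667 near LOC105373873 (86.7, 89.0 and 83.8). All 8 had a peak in the 4 other normalized lists, and all but the one in QSOX2 in 3 or 4 of the other fixed lists, which were at titers 4 to 0.5.

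Among gained distal regions, chr19:3434586-3435195, in the transcription factor gene NFIC, had the highest percentiles, 95.6, 88.1 and 85.1 in the excess lists. It had a peak in all 4 other fixed lists and 2 of the 4 other normalized lists. Next were chrX:53250261-53251494 in IQSEC2 (82.6, 80.3 and 73.9), chr6:158704412-158704889 in SYTL3 (84.6, 77.7 and 72.4), chr5:10726271-10727676 in DAP (79.5, 77.7 and 62.9) and chr4:78811923-78812956 in BMP2K (77.8, 66.5 and 73.9). The last 3 of the 8 were chr3:126914876-126915611 in CHCHD6, chr16:9047202-9047859, 43785 bp from HAPSTR1, and chr17:17662940-17663588, near SMCR2. The region near HAPSTR1 (69.1, 77.3 and 57.2) was in all 4 other fixed lists and none of the normalized ones.

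Kept distal regions narrowed as promoters did. The highest, chr3:128407005-128422364 overlapping the EEFSEC gene, had widths of 5363, 9897 and 6456 bp with excess and 11869, 14551 and 15360 bp at T1, at a percentile of at least 99.8 in each of the 6 lists. The region chr9:132978742-132992931, overlapping GFI1B, an erythroid repressor gene, had percentiles of 94.8, 89.98 and 68.8 against 99.8, 99.8 and 99.5. A region at chr6:70335474-70337509, 52277 bp from COL9A1, had 65.7, 43.1 and 79.3 against 99.8, 99.9 and 99.8 and widths of 662, 660 and 552 bp against 1757, 1990 and 1612 bp. Of these 3 regions it had the lowest percentiles in T32 and T16.

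Of 254 distal regions within 100 kb of the TSS of red cell membrane genes 24 were lost (9.45%) and 5.51% were kept, beside 3.71% and 7.67% of all distal regions. The shares lost were 5.24% near iron genes, 3.97% near heme genes, 3.38% near erythroid transcription factors, 2.55% near STAT5 targets, 3.46% near AP-1 genes, 2.31% and 2.24% near ribosomal and proteasome genes, 0.962% near lymphoid and 5.38% near neuronal genes (5 regions). Near globin genes 1 of 63 was lost (1.59%), chr16:95647-97016 in NPRL3, the gene whose introns hold the alpha globin enhancers, at T1 percentiles of 63.0, 54.5 and 42.6. These shares are counts with no test.

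Of the 24 regions, those of highest rank lay in the Rh and glycophorin gene clusters, where near-identical genes make the placement of reads uncertain. They were chr1:25414046-25414817 in RHCE (89.98, 89.0 and 80.1) and chr4:144006111-144006821, chr4:144004921-144005916 and chr4:143999628-144000585 in GYPB (78.4, 89.4 and 85.7, then 74.7, 82.0 and 91.3, then 77.8, 85.2 and 83.8). In single-copy genes, lost regions were chr14:64838798-64839603 in SPTB, beta spectrin (68.4, 58.0 and 76.2), and chr17:44284829-44285769 near SLC4A1 (53.4, 62.7 and 61.7). Near ALAS2 3 regions were lost, with chrX:55005623-55008641 in APEX2 (77.8, 72.3 and 82.1) the strongest. One of them, chrX:55018683-55019853, lies inside ALAS2 and was in all 4 other normalized lists and no other fixed list. In LMO2, which encodes a bridge in the GATA1 complex, chr11:33865836-33866701 was lost (70.2, 37.8 and 60.1), and in MYB chr6:135210336-135211913 (32.8, 63.1 and 61.8).

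Other neighbourhoods stood out after the values were seen. ZMYND8, a reader of acetylated histones, had the most lost distal regions within 100 kb of any gene, 11 of 60, with 9 kept and none gained. On the X chromosome 109 of 1570 distal regions were lost (6.94%) and 1 was gained, against 3.71% and 0.554% over all chromosomes. Chromosomes 18, 4 and 13 came next with 6.44%, 5.54% and 5.41% lost, so a high share was not particular to X. Chromosome 20 had the smallest share lost (2.44%).

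The lost and gained distal regions were also looked up in the 8 lists that did not choose them. The 3008 lost regions had a peak in 79.3%, 83.4%, 83.2% and 83.5% of cases in 2.5-T1, 5-T1, 10-T1b and 20-T1 and in 34.9%, 50.4%, 56.0% and 57.5% in 2.5-T4, 5-T2, 10-T1a and 20-T0.5. The 449 gained regions had one in 25.4%, 31.8%, 30.5% and 25.4% of cases and in 52.6%, 61.2%, 57.0% and 47.4%. Presence differed by arm for both, also at 10 µg where the titer was the same.

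Across all 7 pairs of the series, from titer 32 to titer 0.5, the width at promoters shared by a pair was set against the titer. The median ratio of fixed to normalized width was 0.5997, 0.626 and 0.597 at titers 32, 16 and 8, and 0.758, 0.841, 0.945 and 0.912 at titers 4, 2, 1 and 0.5. Pearson's r between the log2 ratio and the log2 titer was −0.94 (exact permutation p = 0.00397, Benjamini-Hochberg adjusted over 3 relations 0.0119) and Spearman's rho −0.857 (exact permutation p = 0.0238, adjusted 0.0714). On leaving out the 2 pairs with titers farthest from the median, r was −0.950 (exact permutation p = 0.0333, adjusted 0.1). Without the 2.5 µg pair r was −0.939 (adjusted exact permutation p = 0.0833). Both adjusted p-values were above 0.05 while r was no weaker. On leaving out any other single pair the adjusted exact permutation p was 0.00833 to 0.0417. The call below 0.05 thus did not hold without the 2.5 µg pair or without the 2 farthest pairs. Among the 3 excess pairs themselves the ratio did not order by titer. Net loss was lost minus gained, in % of the promoters or distal regions with a peak in either list of a pair. For promoters it had r = 0.258 (exact permutation p = 0.611) and rho = −0.036 (p = 0.963 in the exact permutation test). For distal regions it had r = 0.704 (exact permutation p = 0.0845, adjusted 0.127) and rho = 0.643 (exact permutation p = 0.139). At −log10 q of at least 5 both losses followed the titer more closely, with r = 0.930 for promoters and 0.932 for distal regions (adjusted exact permutation p = 0.00357 for each), and in lists of equal size distal loss had r = 0.817 (adjusted exact permutation p = 0.0452). Titer and DNAchrom run together in the fixed arm, so their parts in these relations cannot be told apart.

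**Figure D5:**
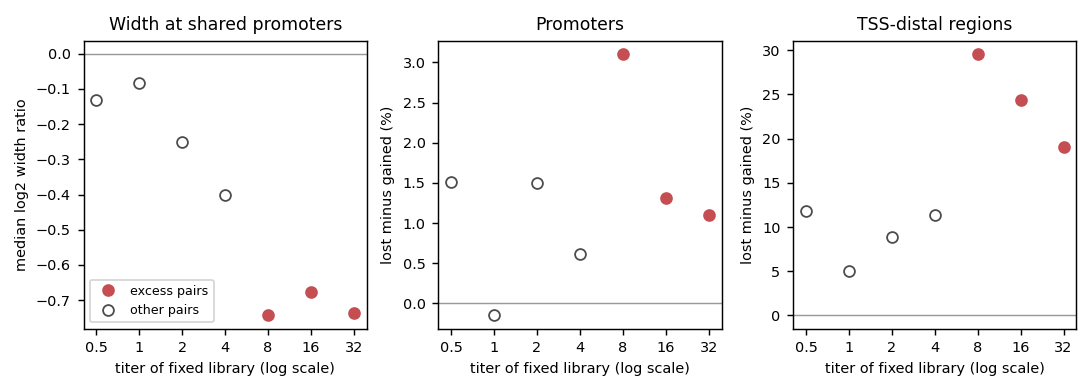
Width ratio at shared promoters and net loss of promoters and distal regions, for the 7 pairs against the titer of the fixed library. Net loss is lost minus gained in % of those with a peak in either list. Titer is on a log scale and excess pairs are filled. The width ratios of the excess pairs, 0.597 to 0.626, lay below those of the 4 other pairs, 0.758 to 0.945.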

How the data were processed

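H3K27ac ChIP-seq was made from K562 cells in 14 immunoprecipitated and 2 input libraries. The submitters' processing notes name BWA 0.5.9 and CASAVA 1.4 and the build hg38. The paper's methods name hg19, but the contig names of the files are those of GRCh38. The authors called peaks per library against the input of its arm with MACS2 and deposited each peak with its fold enrichment, a ratio over the local background, and its −log10 q-value. Replicates were not pooled and there were none. The peak lists give no read counts; the read totals that the study's supplement lists were not used here. The deposited lists reach beyond the false discovery rate that the methods state, so they may not be the lists the paper analysed.

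Peaks with −log10 q of at least 2 were used. TSSs came from RefSeq GRCh38.p14, 15811 from the promoter table and 3815 from the gene's edge with its strand, for 19626 of 19970 protein-coding genes. A gene has the peaks that overlap its TSS ± 1 kb by at least 1 bp, its width is that of the widest, its percentile that of the strongest by fold enrichment. Distal regions were merged peaks more than 5 kb from any TSS. Tests over 3 pairs were exact sign-flip permutations and those over 7 pairs exact over 5040 pairings, all two-sided. The counting was tested on simulated data (20 pairs of lists, 0 wrong calls). Python 3.11.15, numpy 2.4.6, pandas 2.3.3, scipy 1.17.1 and matplotlib 3.10.9 were used.

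The named genes were the 12 lost and 12 gained genes of highest mean percentile, the 8 kept genes with the largest lower and the 8 with the largest higher rank in all 3 pairs, the 6 widest, list members, and the 8 lost and 8 gained distal regions of highest percentile. The libraries compared and the gene lists were chosen with earlier results of these data known, so neither is independent evidence. Alternatives were the whole lists, −log10 q of at least 3 and 5, lists of equal size (64083 peaks), windows of 5 and 0.5 kb, an overlap of 147 bp, a merging gap of 500 bp and leaving out each pair. After seeing the data the gene's edge as TSS for every gene and stricter distances to peaks of the other list were added. The 2 inputs were not analysed here. A few named genes are not reported here.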

Additional observations from a re-analysis of the deposited data

Results flagged for a closer look

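Across the 7 pairs the width of promoter peaks was set against titer. The log2 ratio of fixed to normalized width at shared promoters had r = −0.94 with the log2 titer of the fixed library (exact permutation p = 0.00397, Benjamini-Hochberg adjusted 0.0119, 7 pairs) and Spearman's rho of −0.857 (adjusted exact permutation p 0.0714), which was picked out because the effect of the arm differed between titers by a test of that difference. The ratio was 0.5997, 0.626 and 0.597 in the 3 excess pairs and 0.758, 0.841, 0.945 and 0.912 in the others. Without the 2.5 µg pair the adjusted exact permutation p of r was 0.0833 and without the 2 pairs of most extreme titer 0.1, both above 0.05. In these settings r was −0.939 and −0.950. On leaving out any other single pair the adjusted exact permutation p was 0.00833 to 0.0417. DNAchrom changes together with the titer in the fixed arm, so the 2 cannot be told apart.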

How the results depend on the processing

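Of the alternatives run for counts, differences and relations over pairs, 112 left the result at its side of the threshold or within 1.5 times, 23 moved it, 3 turned its direction, 3 brought it past the threshold and 2 ended the call. Of those for named genes and regions 497 left the call, 55 ended it and 1 turned it: CD248 went to −12.0 points with a window of 5 kb. The mean log2 width ratio at kept promoters stayed between −0.72 and −0.75. At −log10 q of at least 3 and 5, 24 and 8 promoters and 219 and 27 distal regions were gained; at 5, 264 promoters were lost and 2494 distal regions kept. A merging gap of 500 bp left 1762 lost distal regions. With no peak of the other list within 5 kb, 51 promoters were lost and 16 gained, and within 1 kb, 1527 and 160 distal regions. Leaving out one pair gave 177 to 189 lost and 79 to 119 gained promoters and 6315 to 7280 lost and 1527 to 1760 gained distal regions, since fewer lists must then meet the rule. Net promoter loss against titer had r = 0.258, −0.035 in the whole lists and −0.048 with a window of 5 kb. Its r was −0.00157 to 0.404 on leaving out a pair (lowest without the 10 µg pair). At −log10 q of at least 5 it was 0.930 (adjusted exact permutation p 0.00357). Net distal loss had r of 0.932 (adjusted exact permutation p 0.00357) at 5 and 0.817 (0.0452) in lists of equal size. Width against titer ran from r = −0.977 to −0.927 on leaving out a pair, with an adjusted exact permutation p of 0.0833 without the 2.5 µg pair and 0.1 (r = −0.950) without the 2 farthest. The cause was not tested.

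With 1 library per condition and 3 pairs, a missing peak says only that the caller gave none. The study's supplement lists read totals per library, which were not used here, and the part of depth in the results was not tested. Of the 85 lost and 37 gained promoters, 69 and 28 were called in the whole lists and 69 and 33 in lists of equal size.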
